A study of Mus musculus with 8 samples.

Results

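Primary chondrocytes, the cartilage cells, of the embryonic mouse sternum were compared between 2 genotypes that carry the same Cre transgene and differ in a floxed allele of Idh1. The comparison rests on 6 of the 8 libraries of the series: 3 of Col2a1Cre;Idh1 fl/+ cells (called Cre-Idh1 in what follows) and 3 of Col2a1Cre cells (the Cre control). The other 2 libraries, of Idh1 fl/+ cells that lack Cre, form the floxed control, and their values are set beside the named genes without a test. All cells came from C57BL/6 embryos at embryonic day 18.5 and were released from sterna with protease and collagenase, and RNA was read as messenger RNA libraries made with a stranded kit. By its title the series concerns cells that express mutant Idh1. The labels do not name the mutation, and the design text writes fl/fl where the sample labels write fl/+. The Cre transgene is driven by the promoter of Col2a1, which encodes type II collagen of cartilage, so recombination is directed to cells that use or have used it, and other cells of the digest are not its target. All listed genes were examined, and 14851 of 16432 passed a filter on low values and were tested.

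Idh1 encodes the cytosolic and peroxisomal isocitrate dehydrogenase, which turns isocitrate into alpha-ketoglutarate and makes NADPH. Mutant forms found in cartilage tumours and other tumours instead turn alpha-ketoglutarate into D-2-hydroxyglutarate, which competes with alpha-ketoglutarate at dioxygenases such as the TET enzymes and the Jumonji histone demethylases. NADPH is spent in sterol and fatty acid synthesis and in keeping glutathione and thioredoxin reduced. Sternal chondrocytes proliferate, lay down collagen and proteoglycan, and in part enlarge into hypertrophic cells that express Col10a1 before bone forms.

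The 6 libraries held 31860422 to 40838583 reads assigned to listed genes. Values are normalized counts, that is, read counts divided by a size factor for each library. Col2a1 took 15.9% to 21.3% of the reads. Female embryos, by Xist and the Y-linked genes, gave Cre control replicates 1 and 3 and Cre-Idh1 replicate 1. Male embryos gave the rest, both floxed controls included. Both groups of the comparison thus hold more than 1 embryo, but the labels do not say whether each library is a separate animal or litter. The p-values therefore rest on the spread among these libraries, which may be technical in part. Cre-Idh1 replicate 3 stood apart within its group: it was the farthest of the 3 from their median in 8106 of 14851 genes and lay at -37.5 on the second principal component (18.8% of the variance), where the other libraries of its group lay at 32.0 and 15.7. The first component (53.7%) set the groups apart. The median SD of log2 values was 0.20 in Cre-Idh1 and 0.12 in the Cre control. Markers of other cell types were present, and the levels of some of these lists are given here. The summed normalized count of the 11 listed macrophage markers was 11939, 5780.2 and 4510.1 against 3414, 6033 and 4253 (Cre-Idh1 against the Cre control), so 1 Cre-Idh1 library stood out. Osteoclast markers summed to 12810, 6631 and 7825 against 5468, 7073 and 5844. Neutrophil markers summed to 25064, 9407 and 6202 against 6432, 13240 and 8134. Erythroid markers summed to 15531, 4128 and 2610 against 3108, 17181 and 8340. In each of these lists replicate 1 was the highest of the Cre-Idh1 libraries, and for erythroid markers Cre control replicate 2 was higher still. Endothelial markers summed to 1124, 495 and 829 against 386, 429 and 402 and the 11 skeletal muscle markers to 722, 562 and 672 against 1743, 1688 and 1671. The 2 listed adipocyte markers summed to 607, 538 and 645 against 369.7, 327 and 315. Of these 2 only Fabp4 was called (log2 fold change 2.19, the other 0.27), and the adipocyte markers Adipoq, Plin1, Cidec and Lep were not analysed here. None of the listed markers of other cell types was at 0 in all 6 libraries. The keratinocyte markers Krt5, Krt14, Krt15 and Trp63 were not analysed here. In such bulk samples fewer cells of a type and less RNA per cell cannot be told apart, and the part that other cell types have in the results was not tested.

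The question of the comparison is how chondrocytes described as carrying a mutant Idh1 differ from chondrocytes with the same Cre. In Cre-Idh1, sterol synthesis enzymes, genes of the NRF2 and glutathione system, ferritin, metallothioneins, cytosolic ribosomal proteins and clustered histone genes were among those that rose. Genes of the cilium, of mitosis and of the Hedgehog pathway were among those that fell. A gene was called where the adjusted p of limma was under 0.05. By this call 1455 of 14851 genes (9.8%) were risen and 1394 (9.39%) fallen, 19.2% in either direction. The risen genes were more spread in size: 556 rose at least 2-fold (3.74%) and 294 fell at least 2-fold (1.98%), 24 rose and 6 fell more than 8-fold, and the median fold was 1.76 for risen and 1.55 for fallen genes. Each library of a group lay beyond each of the other group for 41% of all genes, 20.1% higher and 20.9% lower in Cre-Idh1. By level, 10.8% of genes under 100 normalized counts rose and 4.53% fell, whereas from 100 to 1000 normalized counts 9.5% rose and 11.9% fell. Of the 374 genes above 10000 normalized counts 17.1% rose and 9.09% fell.

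The number of calls depended on the control libraries. Risen and fallen genes numbered 880 and 730 without Cre control replicate 1, 806 and 613 without replicate 2, and 668 and 508 without replicate 3, against 1806 and 2034 without Cre-Idh1 replicate 3. With embryo sex as a covariate they numbered 977 and 921. Whichever 1 of the 6 libraries was left out, 603 of the risen genes (41.4%) and 464 of the fallen (33.3%) kept their call, and unless a lost call is stated, each gene described as risen or fallen below is one of these. On a scale that sets each gene's mean log2 value in the Cre control at 0, the 1455 risen genes had median positions of 0.78, 0.79 and 0.87 (log2) in the 3 Cre-Idh1 libraries and of -0.01 and -0.07 in the 2 floxed controls. The 1394 fallen genes had -0.62, -0.58 and -0.69 in Cre-Idh1 and 0.05 and 0.10 in the floxed controls. The floxed controls thus sat near the Cre control for genes chosen only by the other 6 libraries.

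**Figure D1:**
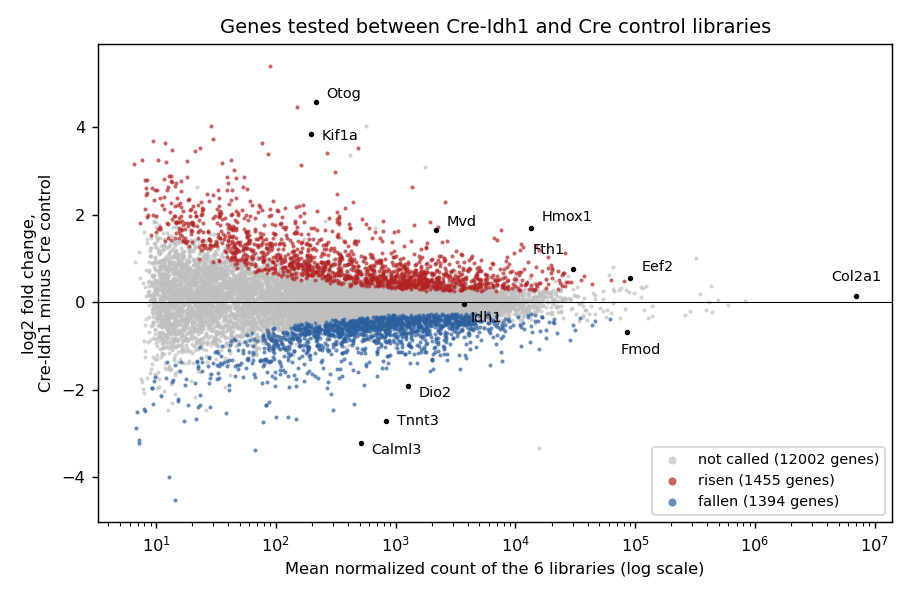
Mean normalized count of the 6 libraries (horizontal, log scale) against the log2 fold change of Cre-Idh1 over the Cre control for the 14851 genes tested, with 1455 risen genes in red, 1394 fallen genes in blue and the rest in grey. Idh1 and Col2a1 lie near 0, and of the labelled genes Otog lies highest and Calml3 lowest.

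Idh1 was measured first, since it checks the labels. It stood at 3549, 3948 and 3465 in the Cre-Idh1 libraries, 3624, 3647 and 3991 in the Cre control and 2263 and 2452 in the floxed control. The 2 groups of the comparison overlapped, with a log2 fold change of -0.04 ± 0.09 (SE; limma adjusted p = 0.781), and both lay above the floxed control. These values sum over both alleles, so they do not tell mutant from normal RNA. Among the other genes for enzymes of isocitrate and 2-hydroxyglutarate none rose. Idh2, the mitochondrial NADP-dependent enzyme, fell by 0.35 ± 0.10 on the log2 scale (limma adjusted p = 0.037; call lost without Cre-Idh1 replicate 1 or 2 or Cre control replicate 2 or 3, highest adjusted p 0.161). Idh3a, the catalytic subunit of the NAD-dependent enzyme of the citrate cycle, fell by 0.33 ± 0.09 (call lost without Cre-Idh1 replicate 1 or 2 or Cre control replicate 1, 2 or 3, highest adjusted p 0.152). The D-2-hydroxyglutarate dehydrogenase gene D2hgdh did not pass (-0.08 ± 0.13, adjusted p = 0.69), nor did Idh3b (0.02 ± 0.08) or Idh3g (0.14 ± 0.09). Of the 20 genes tested next to Idh1, 10 on each side in the RefSeq gene order, 1 rose and 2 fell, where 9.8% and 9.39% of all genes did. The risen one was the Wnt receptor gene Fzd5, at 575, 557 and 468 in the Cre-Idh1 libraries, 198, 211 and 192 in the Cre control and 219.7 and 202 in the floxed control (log2 fold change 1.40 ± 0.13).

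The largest rises and falls among genes with a mean of at least 100 normalized counts and groups that did not overlap fell on genes of many kinds. Otog, which encodes a glycoprotein of the inner ear membranes, stood at normalized counts of 363, 494 and 382 in the Cre-Idh1 libraries, 17.6, 19.2 and 12.4 in the Cre control and 5.86 and 14.9 in the floxed control. Its lowest Cre-Idh1 library was far above its highest control, a log2 fold change of 4.58 ± 0.23 (limma adjusted p = 4.12e-05). Its relative Otogl went the other way, at 41.4, 51.0 and 18.1 in the Cre-Idh1 libraries, 279, 174 and 199.7 in the Cre control and 224 and 274 in the floxed control (-2.62 ± 0.37). Kif1a, a kinesin that carries synaptic vesicle precursors along axons, read 349, 413 and 341 in the Cre-Idh1 libraries, 22.0, 27.4 and 24.8 in the Cre control and 49.8 and 21.9 in the floxed control (3.84 ± 0.19). Tenm4, a large cell-surface teneurin, was the most abundant of the 12 largest rises, at 3478, 4651 and 4632 in the Cre-Idh1 libraries, 905, 858 and 826 in the Cre control and 558 and 918 in the floxed control (2.29 ± 0.12, adjusted p = 5.51e-05). The somatostatin receptor gene Sstr2 was at 419.7, 647 and 587 in the Cre-Idh1 libraries, 79.2, 85.1 and 47.6 in the Cre control and 57.6 and 51.7 in the floxed control (2.97 ± 0.25). Fibcd1, a receptor for acetylated sugars, stood at 428, 493 and 545 against 36.3, 48.5 and 50.7 (Cre-Idh1 against Cre control, 3.41 ± 0.19). The glycosyltransferase gene B4galnt2 stood at 699, 1150.1 and 848 against 66.0, 90.6 and 70.4 (3.54 ± 0.21). Angptl6, an angiopoietin-like secreted factor, read 475, 708 and 1019.7 against 106, 179 and 150.1 (2.30 ± 0.28). The small GTPase gene Rnd1 read 217, 478 and 155 against 59.4, 76.8 and 33.1 (2.22 ± 0.43), with the Cre-Idh1 libraries spread widely. Krt16 (4.47 ± 0.29), Cdsn (2.64 ± 0.18), Asic4 (3.14 ± 0.36) and Kcng1 (2.48 ± 0.25) complete the 12 and are described with their families.

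Among the falls, Calml3, a calmodulin-like calcium sensor of epithelia, had the largest at 81.7, 86.3 and 131 in the Cre-Idh1 libraries, 901, 955 and 904 in the Cre control and 895 and 725 in the floxed control, a log2 fold change of -3.23 ± 0.18 (adjusted p = 5.71e-05). As3mt, the arsenite methyltransferase, stood at 93.0, 72.6 and 114 in the Cre-Idh1 libraries, 505, 509 and 509 in the Cre control and 575 and 579 in the floxed control (-2.46 ± 0.18). The deiodinase gene Dio2, whose product turns thyroxine into active thyroid hormone, was at 505, 601 and 476 in the Cre-Idh1 libraries, 2046, 1832 and 2073 in the Cre control and 2744 and 3732 in the floxed control (-1.91 ± 0.11, adjusted p = 7.09e-05). The groups of Dio2 were far apart, with little spread in either. The tetraspanin gene Tspan8 read 78.6, 21.6 and 31.9 against 275, 263 and 208 (-2.67 ± 0.41), with a wide range inside Cre-Idh1. Tnnt3, P2rx7, Pla2g5, Cyp39a1, Dsg2 and Gjc3 are taken up with their families below. Car9, a carbonic anhydrase known as a hypoxia target, stood at 108, 278 and 211 against 372, 1775 and 504, and Cre control replicate 2 was far above the others of its group (-1.90 ± 0.55; call lost without Cre-Idh1 replicate 1 or 3 or Cre control replicate 2 or 3, highest adjusted p 0.0899).

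**Figure D2:**
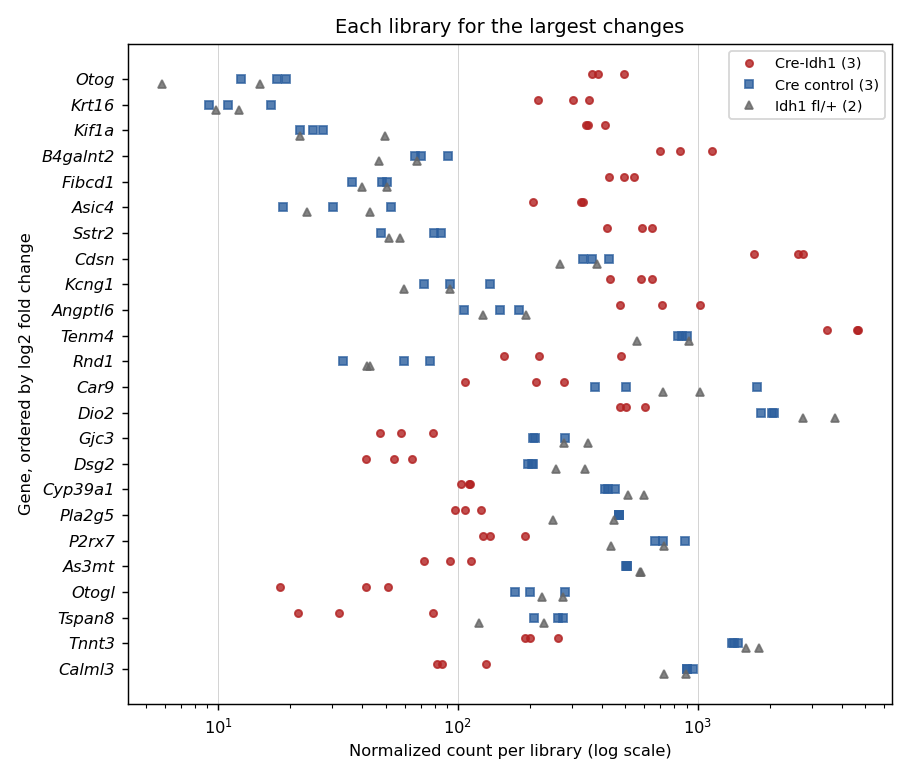
Normalized counts (horizontal, log scale) in each of the 8 libraries for the 12 genes with the largest rise and the 12 with the largest fall among called, non-overlapping genes with a mean of at least 100 normalized counts. Red circles are the 3 Cre-Idh1 libraries, blue squares the 3 Cre control libraries and grey triangles the 2 Idh1 fl/+ libraries. For each gene the red circles lie to one side of the blue squares.

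In absolute counts other genes moved most. Fth1, the ferritin heavy chain that stores iron, stood at 41189.8, 35013 and 37073 in the Cre-Idh1 libraries, 21896, 23492 and 21382 in the Cre control and 19672 and 16847 in the floxed control (0.76 ± 0.10). Gnb2l1 (Rack1), a scaffold on the small ribosomal subunit, read 40964, 43574 and 51101 in the Cre-Idh1 libraries, 26418, 31569 and 32049.6 in the Cre control and 29426 and 28094 in the floxed control (0.59 ± 0.12). The elongation factor genes Eef2 (102093, 111534 and 110313 against 70491, 75928 and 76159.8; 0.54 ± 0.11; call lost without Cre control replicate 2 or 3, highest adjusted p 0.0562) and Eef1a1 (69188, 74608 and 75483 against 46788, 53055 and 54986; 0.50 ± 0.11; call lost without Cre control replicate 2 or 3, highest adjusted p 0.0577) were higher in each Cre-Idh1 library too. A non-coding gene listed as RP23-81C12.1 (Gm26917) stood at 38464, 24055 and 43900.1 against 14538, 14173 and 19053 (1.12 ± 0.21). The largest loss of counts was that of Fmod, fibromodulin, at 55215, 68158 and 74503 in the Cre-Idh1 libraries, 91913, 110240.3 and 116355 in the Cre control and 111345 and 116991 in the floxed control (-0.69 ± 0.15; call lost without Cre control replicate 2 or 3, highest adjusted p 0.0763). The mitochondrially encoded mt-Cytb followed (call lost without Cre-Idh1 replicate 2 or Cre control replicate 1, 2 or 3, highest adjusted p 0.133). After it came the hyaluronan-binding cartilage gene Susd5 (31843, 38150.0 and 36641 against 47216, 54544 and 51915; call lost without Cre control replicate 2 or 3, highest adjusted p 0.0663). Next were the hypertrophic collagen Col10a1 (27853, 20345 and 13579 against 36088, 32665 and 39068; call lost without Cre-Idh1 replicate 2 or Cre control replicate 1, 2 or 3, highest adjusted p 0.112) and then the secreted C1qtnf3 (27420.2, 27004 and 20072 against 37123, 39507 and 38833; call lost without Cre control replicate 3, highest adjusted p 0.0546). For Col10a1 the Cre-Idh1 libraries were themselves far apart.

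The mevalonate and sterol pathway builds cholesterol from acetyl-CoA, and its genes are controlled by SREBP2 together with NF-Y, a factor that binds the CCAAT box. In this list 18 of 21 enzymes rose (85.7%, beside 9.8% of all genes) and none fell. Of the risen, 17 kept the call whichever library was left out. The list median was 0.91 (log2) beside -0.01 over all genes tested. The direction of this list in these data was known when it was chosen, and it serves here as the base for a look at the promoters. Mvd, the mevalonate decarboxylase, stood at 2817, 3361 and 3761 in the Cre-Idh1 libraries, 985, 1032 and 1117 in the Cre control and 1191 and 1257 in the floxed control (1.66 ± 0.12). RefSeq promoter windows of GRCm38.p6, from 250 bases before to 50 after the start, were found for 16 of the 21. A CCAAT box, searched as CCAAT on both strands, lay in 15 of these 16 windows (93.8%), against 42.3% of the windows matched to genes tested and 37.4% of all 32851 windows. With 5 enzymes lacking a window, the share is void as a check of the list and describes these 16 only. Over all genes, 40.8% of the windows of risen genes and 43.4% of those of fallen genes held one. The stretches of 150 bases before the start are shown for the 4 enzymes with the largest rise among those with a window, all with a box, and for Hmgcs1, which also holds the sterol regulatory element. Capitals mark CCAAT, or ATTGG where the box lies on the other strand, and in Hmgcs1 also the element.
Mvd: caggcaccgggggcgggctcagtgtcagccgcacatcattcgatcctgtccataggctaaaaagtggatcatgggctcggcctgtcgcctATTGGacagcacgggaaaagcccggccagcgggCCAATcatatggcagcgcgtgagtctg
Idi1: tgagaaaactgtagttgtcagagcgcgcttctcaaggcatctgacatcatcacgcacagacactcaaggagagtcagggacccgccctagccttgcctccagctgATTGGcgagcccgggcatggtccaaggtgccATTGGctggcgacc
Lss: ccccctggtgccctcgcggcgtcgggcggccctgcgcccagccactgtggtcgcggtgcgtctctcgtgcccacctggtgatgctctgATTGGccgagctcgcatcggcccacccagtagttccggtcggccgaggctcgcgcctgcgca
Tm7sf2: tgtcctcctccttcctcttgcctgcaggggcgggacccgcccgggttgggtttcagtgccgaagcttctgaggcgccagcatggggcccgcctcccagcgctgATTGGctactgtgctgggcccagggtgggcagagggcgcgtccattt
Hmgcs1: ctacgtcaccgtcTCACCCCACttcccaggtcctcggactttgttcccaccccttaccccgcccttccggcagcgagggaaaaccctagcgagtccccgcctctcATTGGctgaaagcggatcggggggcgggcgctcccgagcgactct
They lie, in this order, at chr8:122443423-122443572 (minus strand), chr13:8885456-8885605 (plus strand), chr10:76531455-76531604 (plus strand), chr19:6067851-6068000 (minus strand), chr13:119690201-119690350 (plus strand). The sterol regulatory element, searched on both strands as TCACNCCAC, was found in 1 of the 16 windows, that of Hmgcs1, and in 1.24% of all windows. It does not overlap the CCAAT box there. These matches describe letters in a window and say nothing of what was bound.

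Branches that leave or follow this pathway did not move as one. None of the 10 isoprenoid branch enzymes tested was called (list median -0.03). Cyp39a1 and Cyp7b1, hydroxylases that break down oxysterols, fell. Cyp39a1 stood at 112, 113 and 103 in the Cre-Idh1 libraries, 425, 409.8 and 450.2 in the Cre control and 511 and 600.4 in the floxed control (-1.96 ± 0.13). Cyp7b1 stood at 129, 117 and 107 against 259, 258 and 239 (-1.09 ± 0.15). Of 17 genes of fatty acid desaturation and elongation 4 rose, among them the elongases Elovl3 (54.8, 54.9 and 58.4 against 16.5, 22.0 and 18.6; 1.52 ± 0.26) and Elovl7 (309, 338 and 251 against 149.6, 128 and 111; 1.20 ± 0.18) and the desaturase Fads2 (0.41 ± 0.08), and 1 fell. These shares were 23.5% risen and 5.88% fallen, beside 9.8% and 9.39% of all genes, and the risen count was 7 without Cre-Idh1 replicate 3. In fatty acid oxidation 3 of 19 fell and 1 rose (15.8% and 5.26%), and the fallen count was 6 without Cre-Idh1 replicate 3. One of the fallen was Ehhadh, a peroxisomal enzyme, at 125, 126 and 109 in the Cre-Idh1 libraries, 248, 249 and 263 in the Cre control and 267 and 287 in the floxed control (-1.07 ± 0.14). The others were the mitochondrial Decr1 (-0.60 ± 0.09) and Hadh (-0.50 ± 0.08). Lpin1, a phosphatidate phosphatase (2588, 2889 and 2837 against 1535, 1388 and 1627; 0.87 ± 0.09), and Pemt, which makes phosphatidylcholine (0.93 ± 0.16), were the risen phospholipid and triglyceride genes that kept their calls among 4 of 27, a count that was 2 without Cre control replicate 2 or 3. Aldh1l1, the folate enzyme that releases carbon dioxide from formyl-tetrahydrofolate, fell from a low level (28.9, 24.5 and 46.7 against 99.0, 146 and 114; -1.85 ± 0.29). Glud1, the glutamate dehydrogenase that makes alpha-ketoglutarate, rose (7985, 8292 and 7188 against 5449, 5298 and 5602; 0.52 ± 0.09). The phospholipase A2 gene Pla2g5 fell, at 108, 97.1 and 125 against 472, 468 and 472 (-2.10 ± 0.14).

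NRF2, encoded by Nfe2l2, switches on genes that make glutathione, recycle thioredoxin and clear heme and electrophiles. Of 33 genes of this system 14 rose and 2 fell (42.4% and 6.06%, beside 9.8% and 9.39% of all genes), with a list median of 0.32. Hmox1, heme oxygenase 1, which breaks heme down and releases iron, stood at 23358, 17943 and 20370.0 in the Cre-Idh1 libraries, 5873, 6687 and 6428 in the Cre control and 5572 and 5320.2 in the floxed control (1.69 ± 0.11, adjusted p = 0.000108). All 3 Cre-Idh1 libraries lay far above every control. Srxn1, sulfiredoxin, which repairs oxidized peroxiredoxins, read 12329, 11312 and 11136 in the Cre-Idh1 libraries, 3809, 3659.8 and 3551 in the Cre control and 3277 and 2714 in the floxed control (1.66 ± 0.08, adjusted p = 4.12e-05). Sod3, the extracellular superoxide dismutase, was at 354, 358 and 448 in the Cre-Idh1 libraries, 176, 109 and 94.2 in the Cre control and 144 and 67.5 in the floxed control (1.65 ± 0.23), with no overlap of Cre-Idh1 with either control. The glutathione transferase Gsta4 was low throughout, at 89.9, 62.8 and 104 against 35.2, 27.4 and 25.9 (1.49 ± 0.27). Both subunits of the enzyme that starts glutathione synthesis rose, Gclc by 0.78 ± 0.11 and Gclm by 0.65 ± 0.12 (log2 ± SE), as did Prdx1 (0.74 ± 0.09), Txnrd1 (0.62 ± 0.10), Sod1 (0.69 ± 0.11), Gstm1 (0.68 ± 0.09), Gsto1 (0.69 ± 0.10) and Nfe2l2 itself (0.56 ± 0.10). Gpx8, a peroxidase of the endoplasmic reticulum (-0.93 ± 0.09), and Prdx3, the mitochondrial peroxiredoxin (-0.56 ± 0.09), fell. The count of risen genes ran from 12 to 16 over the fits that left out 1 library, and 12 of the 14 kept their call in all 6. The fallen count was 5 without Cre-Idh1 replicate 3.

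Iron and metal genes changed beside them. Of 18 genes of this list 5 rose and 1 fell (27.8% and 5.56%, beside 9.8% and 9.39% of all genes). Cp, ceruloplasmin, a copper enzyme that oxidizes iron on its way out of cells, stood at 777, 1096 and 739 in the Cre-Idh1 libraries, 276, 264 and 208 in the Cre control and 259.7 and 287 in the floxed control (1.79 ± 0.18). The metallothionein gene Mt2 rose (2112, 2142 and 2304 in the Cre-Idh1 libraries, 806, 519 and 637 in the Cre control and 304 and 322 in the floxed control; 1.76 ± 0.15), as did Mt1 (3962, 3325 and 4402 against 1718, 1314 and 1429; 1.39 ± 0.13). Each Cre control library of Mt2 lay above both floxed controls. Trf, transferrin, was low and fell (22.7, 33.3 and 37.2 against 93.5, 97.9 and 118; -1.72 ± 0.25). The heme transporter gene Slc48a1 rose by 1.17 ± 0.09.

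The cytosolic ribosome is built from proteins whose messenger RNAs are among the most abundant of a cell and are translated together in response to growth signals. Of 82 such genes tested 35 rose and 1 fell (42.7% and 1.22%, beside 9.8% and 9.39% of all genes), with a median of 0.43. Rplp0, of the ribosomal stalk, stood at 28004, 31818 and 34131 in the Cre-Idh1 libraries, 18274, 20193 and 20459 in the Cre control and 19579.9 and 19176 in the floxed control (0.67 ± 0.11). Rplp1 read 22245, 21759 and 33277 in the Cre-Idh1 libraries, 14017, 14851 and 15559 in the Cre control and 13956 and 12731 in the floxed control (0.77 ± 0.16). Rps20 read 4607, 4688 and 6383 against 2764, 3255 and 3199 (0.75 ± 0.14). In both Cre-Idh1 replicate 3 lay well above the other Cre-Idh1 libraries. The sum over the 84 listed genes was 401493 and 422828 in Cre-Idh1 replicates 1 and 2, 529679 in replicate 3 and 294117 to 334165 in the Cre control. The number risen was small without any 1 Cre control library: 5, 10 and 6 without Cre control replicates 1, 2 and 3, in turn, and 15 with sex as a covariate. Only 5 members, Rplp1, Rps20, Rplp0, Rps24 and Rps15a, kept the call whichever library was left out, whereas the list median stayed between 0.31 and 0.49. The fallen member was Rps4y2 (Rps4l), a close relative of Rps4x (654, 597 and 757 against 1386, 1355 and 1378; -1.04 ± 0.11). Ribosomal proteins have many processed copies in the genome, so reads could be shared between near-identical genes.

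Other large complexes of housekeeping proteins did not show this. In the mitochondrial ribosome 3 of 77 genes rose and 4 fell (median 0.00), in the respiratory chain 2 of 76 rose and 2 fell (0.04), in the proteasome none of 38 rose and 2 fell (0.02), and of 35 aminoacyl-tRNA synthetases 1 rose (0.08), all shares below the background of 9.8% and 9.39%. The fallen counts of the first 3 rest on single libraries and were 10, 4 and 5 without Cre-Idh1 replicate 3, and each was 0 without any 1 Cre control library. Ribosomal protein genes have short transcripts (median 1100 bases, 50.9% GC), and the respiratory chain list is near them in both (1094 bases, 50.2% GC). The part of transcript length, base composition or level in the calls of these lists was not tested. Of 15 mitochondrially encoded genes tested 3 rose and 1 fell (20% and 6.67%, beside 9.8% and 9.39% of all genes), with a list median of 0.00. Their mean log2 position against the Cre control was 0.22, 0.14 and -0.36 in Cre-Idh1 replicates 1, 2 and 3. The risen count was 5 without Cre-Idh1 replicate 3. The fallen count was 0 without any 1 Cre control library or Cre-Idh1 replicate 2, and 0 with sex as a covariate. It was 2 without Cre-Idh1 replicate 1. Among the risen genes mt-Rnr1, the small ribosomal RNA of the organelle, stood at 16792, 16778 and 15548 in the Cre-Idh1 libraries, 6865, 6895 and 6642 in the Cre control and 8266 and 11054 in the floxed control (1.27 ± 0.08). The protein gene on the other strand, mt-Nd6, was at 13852, 16505 and 16802 in the Cre-Idh1 libraries, 7874, 5671 and 5479 in the Cre control and 7101 and 10109 in the floxed control (1.32 ± 0.15). The floxed control was above the Cre control for both. The strand setting of the counting was not given in the sources used here. Reads of mt-Nd6 and of transcripts opposite to it may therefore not be separated.

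Clustered histone genes serve DNA replication, and their main transcripts end in a stem-loop rather than a poly(A) tail. In this list 13 of 31 genes rose and 1 fell (41.9% and 3.23%, beside 9.8% and 9.39% of all genes), with a median of 0.77. The fallen one was H1f0, a linker histone gene outside the clusters (call lost without Cre control replicate 2 or 3). Hist1h2bc, the most abundant of the 4 with the largest change, stood at 2665, 3100.4 and 3344 in the Cre-Idh1 libraries, 909.8, 864 and 773 in the Cre control and 802 and 841 in the floxed control (1.83 ± 0.11, adjusted p = 7.44e-05). Hist1h3d was at 124, 196 and 151 in the Cre-Idh1 libraries, 31.9, 37.5 and 22.8 in the Cre control and 39.1 and 38.6 in the floxed control (2.32 ± 0.26). Hist1h2ad (2.29 ± 0.40) and Hist1h4k (2.21 ± 0.43) rose from values around or below 10. The linker histone genes Hist1h1c (0.69 ± 0.10) and Hist1h1d (1.07 ± 0.18) rose too. The call was kept by 11 of the 13 in all 6 fits with a library left out. The summed count of the 45 listed genes was 25352, 28043 and 28331 against 21831, 25192 and 22619 (Cre-Idh1 against the Cre control), close together but with no overlap, and 24742 and 25662 in the floxed control, which reached into the Cre-Idh1 range. Near-identical histone copies may share reads, and libraries selected for poly(A) hold only a part of histone RNA.

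Genes of mitosis and DNA replication went the other way, with none of 38 risen and 11 fallen (28.9%, beside 9.39% of all genes). Their median was -0.36. Rrm2, the ribonucleotide reductase subunit that supplies deoxynucleotides, stood at 564, 555 and 423 in the Cre-Idh1 libraries, 879, 874 and 907 in the Cre control and 998 and 1009.7 in the floxed control (-0.80 ± 0.13). Plk1, a mitotic kinase, fell by 0.51 ± 0.09 on the log2 scale. Rrm2 was lowest in Cre-Idh1 replicate 3. The other 9 were Ttk, Cenpf, Tk1, Kif20a, Bub1b, Kif23, Rrm1, Ube2c and Aurkb, and each lost its call without at least 1 library. The count of fallen genes was 4, 3 and 2 without Cre control replicates 1, 2 and 3, in turn, 6 without Cre-Idh1 replicate 2, and 5 with sex as a covariate. Among cyclins, cyclin-dependent kinases and their inhibitors the inhibitors Cdkn2b (104, 134 and 117 against 42.9, 57.6 and 48.6; 1.24 ± 0.21) and Cdkn1a (16869, 16765 and 15609 against 11696, 10205 and 10175; 0.62 ± 0.09) rose. For Cdkn1a the floxed control was lower still (6755 and 4970.5 normalized counts).

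**Figure D3:**
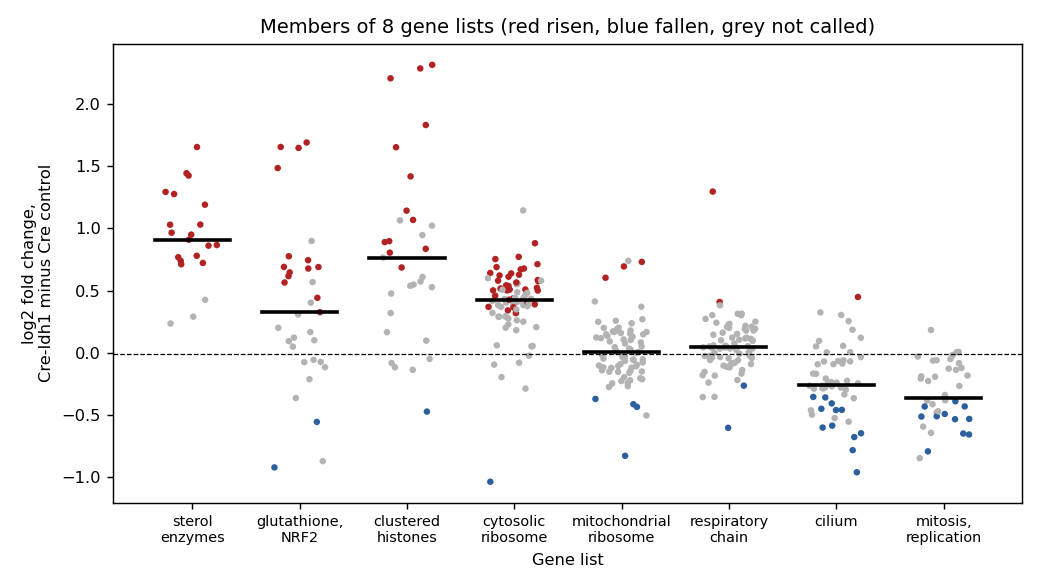
Log2 fold change of Cre-Idh1 over the Cre control (vertical) for each tested member of 8 gene lists, with risen genes in red, fallen genes in blue, genes not called in grey, a black bar at each list's median and a dashed line at the median of all genes. The medians are 0.91 for sterol enzymes, 0.32 for the glutathione and NRF2 list, 0.77 for clustered histones, 0.43 for the cytosolic ribosome, 0.00 for the mitochondrial ribosome, 0.04 for the respiratory chain, -0.26 for the cilium and -0.36 for mitosis and replication.

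The primary cilium is the antenna of the chondrocyte through which Hedgehog signals pass, and intraflagellar transport carries its cargo. Of 54 cilium genes 12 fell and 1 rose (22.2% and 1.85%; median -0.26). Wdr35, a component of the retrograde transport complex, stood at 1966, 2192 and 1666 in the Cre-Idh1 libraries, 4298, 3442 and 3614 in the Cre control and 2982 and 2743 in the floxed control (-0.97 ± 0.13). Both floxed control libraries lay between the groups. Bbs1, of the BBSome coat, read 231, 243 and 263 in the Cre-Idh1 libraries, 406, 403 and 466 in the Cre control and 411 and 539 in the floxed control (-0.79 ± 0.13). Both kept their call whichever library was left out. The fallen count was 6, 4 and 3 without Cre control replicates 1, 2 and 3, in turn, and 5 and 21 without Cre-Idh1 replicates 1 and 3, in turn. In the Hedgehog list 7 of 19 fell (36.8%, beside 9.39% of all genes) and none rose. Among the fallen were Gli1, the transcriptional readout (432, 428 and 447 against 921, 998 and 969.7; -1.14 ± 0.10), Disp1, which releases the ligand (-0.72 ± 0.09), and the receptor Ptch1 (-0.72 ± 0.12). A GLI site, searched as GACCACCCA on both strands, was in none of the 16 matched promoter windows of that list and in 0.25% of all windows. The axonemal dynein gene Dnahc1 (Dnah1) fell as well (171, 149 and 195 against 378, 351 and 349.8; -1.07 ± 0.15).

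Cartilage matrix genes changed in part. Col2a1 was abundant in each library (5988456, 7828937 and 8277656 against 5586175, 7094363 and 7243069) and did not pass (0.15 ± 0.48, adjusted p = 0.86). Sox9, the factor that switches cartilage genes on, did not pass either (34111, 36444 and 37347 against 36571, 36129 and 35473; adjusted p = 0.978), nor did the core proteoglycan gene Acan. Of 17 genes of chondrocyte identity 4 fell (23.5%, beside 9.39% of all genes) and none rose. Matn3, a matrilin of the growth plate, stood at 11209, 10348 and 9039 in the Cre-Idh1 libraries, 21854, 21411 and 20667 in the Cre control and 25055 and 21596 in the floxed control (-1.07 ± 0.10), with no library between the groups. Ucma, a secreted cartilage protein (14053, 17668 and 19215 against 27690.4, 26534 and 27743; -0.70 ± 0.12), and Sox5, a partner of Sox9 (-0.47 ± 0.09), fell too. Of 33 matrilins, thrombospondins and other glycoproteins 10 fell and 3 rose (30.3% and 9.09%), a fallen count of 5 without Cre control replicate 2 or 3. Besides Matn3 and Ucma, Ecm2 fell (454, 559 and 518 in the Cre-Idh1 libraries, 1116, 1253 and 1232 in the Cre control and 1469 and 1631 in the floxed control; -1.24 ± 0.11). The fibrillin gene Fbn1 (-0.57 ± 0.10) and Fbln7 (-0.52 ± 0.07) kept a fall too, and Fbln2 (1212, 1442 and 1364 against 489.6, 713 and 598; 1.17 ± 0.14) and Ecm1 (0.97 ± 0.18) kept a rise. Among proteoglycans 7 of 32 fell and 5 rose (21.9% and 15.6%, beside 9.39% and 9.8% of all genes). The small leucine-rich proteoglycan Omd stood at 1091, 1545 and 664 in the Cre-Idh1 libraries, 3469, 2457 and 3109.9 in the Cre control and 4002 and 5048 in the floxed control (-1.52 ± 0.27). Its relatives Prelp (-0.81 ± 0.09) and Chad (-0.65 ± 0.12) fell with it. Bcan, a proteoglycan best known from brain, rose (252, 225 and 344 against 58.3, 127 and 127; 1.45 ± 0.31). The fallen count was 4 and 3 without Cre control replicates 2 and 3, in turn, and 11 without Cre-Idh1 replicate 3, and the risen count 3 and 1 without Cre control replicates 2 and 3, in turn, 2 and 3 without Cre-Idh1 replicates 1 and 2, in turn, and 2 with sex as a covariate.

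Of 42 collagens 7 rose and 4 fell (16.7% and 9.52%), the second share close to that of all genes (9.39%). Col20a1 rose (787, 678 and 1032 in the Cre-Idh1 libraries, 259.6, 204 and 198 in the Cre control and 123 and 135 in the floxed control; 1.90 ± 0.18). The basement membrane collagen Col18a1 (1055, 889 and 1429 in the Cre-Idh1 libraries, 427, 422 and 407 in the Cre control and 386 and 281 in the floxed control; 1.40 ± 0.16) rose as well. The neighbouring genes Col4a5 (696, 773 and 631 in the Cre-Idh1 libraries, 1616, 1550.4 and 1488 in the Cre control and 1369 and 1184 in the floxed control; -1.15 ± 0.10) and Col4a6 (-1.10 ± 0.14) fell. The other collagens that were called each lost the call without at least 1 library. The count of risen collagens was 3, 4 and 3 without Cre control replicates 1, 2 and 3, in turn, and 4 with sex as a covariate, and the fallen count 2 without Cre control replicate 1 or 2 and 2 without Cre-Idh1 replicate 2. Loxl4, which crosslinks collagen, was abundant and rose (13433, 13933 and 12499 in the Cre-Idh1 libraries, 5981, 6138 and 6092 in the Cre control and 6019 and 5509 in the floxed control; 1.13 ± 0.08). The prolyl hydroxylase gene Leprel1 (P3h2) rose as well (9390.3, 10257 and 10754 against 6808, 5638 and 5479; 0.77 ± 0.11).

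Metalloproteases and their inhibitors gave 14 rises and 9 falls in 55 genes (25.5% and 16.4%, both above the 9.8% and 9.39% of all genes). Adamts1, an aggrecan- and versican-cleaving protease, stood at 9051, 10970.0 and 9009 in the Cre-Idh1 libraries, 3298, 3934 and 3242 in the Cre control and 3686 and 3374 in the floxed control (1.47 ± 0.11). Mmp3, stromelysin, read 385, 726 and 443 in the Cre-Idh1 libraries, 161, 233 and 71.4 in the Cre control and 152 and 71.0 in the floxed control (1.83 ± 0.40), with a wide spread in both groups that did not overlap. Adamtsl2 (53.8, 123 and 141 against 28.6, 12.8 and 21.7; 2.23 ± 0.42) and Adamtsl3 (387, 478 and 425 against 184, 196 and 167; 1.23 ± 0.14), relatives of the proteases without the catalytic domain, rose. So did Mmp28 (1.10 ± 0.14), the inhibitor Timp3 (0.93 ± 0.10) and Adamts14 (0.99 ± 0.12). Mmp2, the gelatinase, went the other way (8668, 9141 and 9580.1 against 15334, 18837 and 17701; -0.92 ± 0.10). So did Adamts12 (-0.88 ± 0.17), Mmp16 (-0.70 ± 0.13) and Adamts3 (-0.60 ± 0.09). The risen count was 9 without Cre control replicate 2 or 3, and the fallen count was 4 without any 1 Cre control library and 5 with sex as a covariate. The fibronectin receptor chain Itga5 rose at a high level (16806, 20149 and 19736 against 10659.6, 10763 and 10761; 0.81 ± 0.09). So did Itga3 (1366, 1229.6 and 1449 against 558, 536 and 466; 1.37 ± 0.11).

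Contractile protein genes fell in 6 of 25 cases and rose in 2 (24% and 8%, beside 9.39% and 9.8% of all genes). Their risen count was 1 without Cre control replicate 1 or 3, 1 without Cre-Idh1 replicate 2, and 1 with sex as a covariate. Tnnt3, a fast troponin T, stood at 199.5, 191 and 261 in the Cre-Idh1 libraries, 1479.7, 1398 and 1422 in the Cre control and 1590.5 and 1811 in the floxed control (-2.73 ± 0.14, adjusted p = 4.12e-05). Myl9, the smooth muscle regulatory light chain, read 309, 331 and 271 in the Cre-Idh1 libraries, 770.1, 949 and 793 in the Cre control and 1061 and 1049 in the floxed control (-1.46 ± 0.13). Tpm2, a tropomyosin, read 398, 401 and 522 in the Cre-Idh1 libraries, 1158, 1199 and 983 in the Cre control and 1081 and 1131 in the floxed control (-1.34 ± 0.14). Every Cre-Idh1 library lay far below every control for these. Tpm1 (-0.43 ± 0.08) and Myh14 (-0.68 ± 0.12) fell by less. Acta1, the skeletal muscle actin, went up (212, 172 and 152 against 46.2, 49.4 and 39.3; 1.96 ± 0.20), with floxed controls at 198 and 40.3. Mylk2, a myosin light chain kinase of skeletal muscle, also rose (142, 122 and 153 against 58.3, 39.3 and 51.7; 1.47 ± 0.22). Of 6 skeletal muscle markers tested Tnnt3 fell, Acta1 rose and 4 were not called. In the Cre control Tnnt3 alone made up most of their summed count, so the lower sum of Cre-Idh1 given above is mainly that of Tnnt3.

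Genes known from stratified epithelium were among the risen cell contact proteins. Cdsn, corneodesmosin, which holds cornified cells together, stood at 1725, 2754 and 2626 in the Cre-Idh1 libraries, 333, 361 and 427 in the Cre control and 267 and 380.4 in the floxed control (2.64 ± 0.18, adjusted p = 0.000132). The plakophilin gene Pkp1 was at 113, 169 and 154 in the Cre-Idh1 libraries, 33.0, 30.2 and 33.1 in the Cre control and 48.8 and 26.3 in the floxed control (2.12 ± 0.22). Desmoplakin, Dsp, stood at 661, 585 and 339.9 against 219, 207 and 256 (1.17 ± 0.23) and E-cadherin, Cdh1, at 67.2, 61.8 and 51.0 against 19.8, 22.0 and 16.6 (1.58 ± 0.26). Krt16, a keratin of stressed epidermis, read 215, 354 and 303 in the Cre-Idh1 libraries, 11.0, 9.15 and 16.6 in the Cre control and 9.76 and 12.3 in the floxed control (4.47 ± 0.29), and closely related keratins may share its reads. Of 13 keratins 4 rose and 3 fell (30.8% and 23.1%), and among the fallen Krt83 kept its call (33.1, 32.4 and 31.9 against 72.6, 101 and 77.6; -1.33 ± 0.23) whereas Krt8 and Krt75 did not. The risen count of keratins was 2 without Cre control replicate 2 or 3 and 2 without Cre-Idh1 replicate 1 or 2, and the fallen count 1 without Cre control replicate 2 or 3, 1 without Cre-Idh1 replicate 2, and 1 with sex as a covariate. Perp, a desmosomal protein and p53 target, rose by 0.72 ± 0.14. Dsg2, desmoglein 2, fell in contrast (64.1, 53.9 and 41.4 in the Cre-Idh1 libraries, 205, 206 and 197 in the Cre control and 257 and 340.1 in the floxed control; -1.93 ± 0.20). Of 23 cadherins and desmosomal proteins 6 rose and 1 fell (26.1% and 4.35%, beside 9.8% and 9.39% of all genes). The fallen count of this list was 2 without Cre-Idh1 replicate 1 or 3. The connexin genes Gjc3 (47.6, 57.9 and 78.6 against 281, 205 and 210.1; -1.92 ± 0.23) and Gja3 (20.7, 19.6 and 18.1 against 4.40, 3.66 and 3.10; 2.12 ± 0.40) moved in opposite directions. The tetraspanin gene Tspan15 rose from near 10 normalized counts (66.2, 64.7 and 69.0 against 8.80, 20.1 and 6.21; 2.56 ± 0.41). Of the keratinocyte markers tested 2 of 3 rose, Dsp and Perp themselves, while Krt5, Krt14, Krt15 and Trp63 were not analysed here, so the part of keratinocytes in these rises was not tested.

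Of 102 ion channel genes 19 rose and 8 fell (18.6% and 7.84%, beside 9.8% and 9.39% of all genes). Asic4, of the acid-sensing channel family, stood at 207, 327 and 331 in the Cre-Idh1 libraries, 18.7, 30.2 and 52.8 in the Cre control and 23.4 and 42.9 in the floxed control (3.14 ± 0.36). The potassium channel genes Kcna1 (94.1, 102 and 80.7 in the Cre-Idh1 libraries, 9.90, 23.8 and 11.4 in the Cre control and 23.4 and 7.89 in the floxed control; 2.63 ± 0.35) and Kcng1 (430.1, 645 and 582 in the Cre-Idh1 libraries, 92.4, 136 and 72.4 in the Cre control and 92.8 and 59.6 in the floxed control; 2.48 ± 0.25) rose. So did the pacemaker channel Hcn2 (1.59 ± 0.23), the neuronal calcium channel Cacna1b (1.37 ± 0.26) and the mechanosensitive Piezo1 (0.55 ± 0.10). P2rx7, the ATP-gated channel, fell (190.2, 127 and 136 in the Cre-Idh1 libraries, 888, 662 and 715 in the Cre control and 726 and 435 in the floxed control; -2.32 ± 0.18). So did Scn2b (-1.56 ± 0.23), Cacna1d (-1.37 ± 0.12) and Kcns1 (-0.88 ± 0.14). The risen count was 10 and 9 without Cre control replicates 1 and 3, in turn, and 11 without Cre-Idh1 replicate 2, and the fallen count 5 without any 1 Cre control library and 5 with sex as a covariate. In 223 solute carriers rises and falls were even, 29 each. The most changed that kept their calls were the organic ion carrier family member Slc22a23 (695, 679 and 537 against 195, 202 and 185; 1.70 ± 0.14), Slc4a11 (224, 255 and 194 against 62.7, 70.4 and 83.8; 1.62 ± 0.19), the mitochondrial carrier family member Slc25a30 (1.62 ± 0.20) and the osmolyte carrier Slc6a12 (1.60 ± 0.18) upward, and the fatty acid carrier Slc27a6 (-1.59 ± 0.09) and Slc16a4 (-1.40 ± 0.18) downward. The aspartate and glutamate carriers of mitochondria, Slc25a12 (-0.70 ± 0.10) and Slc25a13 (-1.14 ± 0.14), both fell. The risen count of solute carriers was 17 and 12 without Cre control replicates 2 and 3, in turn, and the fallen count 19, 19 and 13 without Cre control replicates 1, 2 and 3, in turn.

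Signalling genes were called by family as follows. In the Wnt family 10 of 53 rose and 7 fell (18.9% and 13.2%, beside 9.8% and 9.39% of all genes). The ligands Wnt4 (0.98 ± 0.14), Wnt11 (0.79 ± 0.15) and the low Wnt10a (36.2, 29.4 and 26.6 against 5.50, 5.49 and 11.4; 1.97 ± 0.39), the receptors Fzd5 and Fzd4 (0.76 ± 0.14) and the inhibitors Nkd2 (1.31 ± 0.27) and Sfrp5 (1.21 ± 0.17) rose. The antagonist Frzb, first found in cartilage, fell (7045, 9050.2 and 6217 against 15046, 14599 and 14688; -1.01 ± 0.13), and the fallen count was 3 and 2 without Cre control replicates 2 and 3, in turn. In Notch signalling 6 of 21 rose and 2 fell (28.6% and 9.52%), the second share close to that of all genes (9.39%). The ligand genes Jag1 (711, 679 and 628 in the Cre-Idh1 libraries, 266, 259.8 and 271 in the Cre control and 279 and 249 in the floxed control; 1.34 ± 0.11) and Jag2 (227, 241 and 204 in the Cre-Idh1 libraries, 47.3, 88.7 and 54.8 in the Cre control and 45.9 and 47.3 in the floxed control; 1.85 ± 0.24) rose, as did the target Hey1 (0.95 ± 0.18). The risen count was 3 without any 1 Cre control library and 3 with sex as a covariate, and the fallen count 1 without Cre control replicate 3. Feedback phosphatases of FGF signalling, Dusp6 (1022, 761 and 713 in the Cre-Idh1 libraries, 359, 465 and 382 in the Cre control and 459 and 289 in the floxed control; 1.04 ± 0.16) and Dusp5 (0.88 ± 0.14), were among 8 of 27 genes that rose. The share risen was 29.6%, beside 9.8% of all genes. Of this list 2 fell (7.41%), among them the receptor Fgfr4 (-0.70 ± 0.11). The risen count was 3 without Cre control replicate 1 or 3, 3 without Cre-Idh1 replicate 1, and 3 with sex as a covariate, and 4 when libraries were scaled by their totals.

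Endoglin, Eng, a coreceptor for TGF-beta and BMP9, stood at 401, 392 and 399 in the Cre-Idh1 libraries, 1269.6, 1096 and 1059.7 in the Cre control and 1104 and 719.6 in the floxed control (-1.52 ± 0.11, adjusted p = 0.000132). Its Cre-Idh1 libraries lay within 10 normalized counts of each other. Eng is also an endothelial gene. Of 10 endothelial markers 1 rose (10%, beside 9.8% of all genes) and none fell, all 10 lay above 0 (median 0.98), and as given above their summed count was higher in each Cre-Idh1 library. The number of risen markers was 0 without Cre control replicate 1 or 3 and 0 and 6 without Cre-Idh1 replicates 1 and 2, in turn. DESeq2 called 5 risen in the endothelium list. The part of endothelial cells in the fall of Eng was not tested. The TGF-beta pathway corepressor Tgif1 rose (2140.0, 2206 and 1819 against 1089, 1056 and 1119.8; 0.91 ± 0.10), and the activin receptor Acvr1b fell (-0.62 ± 0.12). In BMP and GDF signalling 7 of 38 fell and 3 rose (18.4% and 7.89%, beside 9.39% and 9.8% of all genes). Bmper, a BMP-binding regulator (929, 999 and 700.0 in the Cre-Idh1 libraries, 1743, 1763 and 1739.7 in the Cre control and 1858 and 1683 in the floxed control; -1.01 ± 0.13), fell. Bmpr1b, a BMP receptor of chondrocytes, fell too (725, 741 and 580.0 against 1186, 1004 and 1087; -0.68 ± 0.12). Gdf15, a stress-induced member of the family, rose (2226, 2458 and 2976 in the Cre-Idh1 libraries, 968, 1091 and 1093 in the Cre control and 749.8 and 778 in the floxed control; 1.27 ± 0.12). The fallen count was 4, 2 and 2 without Cre control replicates 1, 2 and 3, in turn, 3 without Cre-Idh1 replicate 2, and 3 with sex as a covariate, and the risen count 1 without any 1 Cre control library, 1 without Cre-Idh1 replicate 1 or 2, and 1 with sex as a covariate. The 2 proteases that free IGF from its binding proteins went apart. Pappa rose (629, 734 and 609.7 in the Cre-Idh1 libraries, 376, 208 and 199 in the Cre control and 221 and 201 in the floxed control; 1.39 ± 0.23). Pappa2 fell (44.5, 54.9 and 79.7 in the Cre-Idh1 libraries, 209, 162 and 201 in the Cre control and 196 and 264 in the floxed control; -1.69 ± 0.24). Igfbp4, the substrate of Pappa, rose as well (1994, 2670.0 and 3442 against 1113, 1479 and 1416; 0.99 ± 0.19).

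Chemokines, interleukins and their receptors rose in 9 of 70 cases and fell in 1 (12.9% and 1.43%), close to the background in the first and under it in the second. Ccl2, which attracts monocytes, stood at 37.2, 126 and 47.8 in the Cre-Idh1 libraries, 6.60, 11.9 and 7.24 in the Cre control and 10.7 and 15.8 in the floxed control (2.73 ± 0.48), with Cre-Idh1 replicate 2 well above the others. Csf1, the macrophage growth factor, read 3842, 4517 and 3606 in the Cre-Idh1 libraries, 1782, 2080.1 and 1925 in the Cre control and 1847 and 2100.0 in the floxed control (1.04 ± 0.11). The chemokine scavenger Ccbp2 (Ackr2) read 56.9, 49.0 and 74.4 against 15.4, 12.8 and 16.6 (1.93 ± 0.29). Il17b, of the interleukin 17 family, fell (65.1, 51.0 and 45.7 against 215, 140.0 and 134; -1.56 ± 0.24). Without Cre-Idh1 replicate 3 the risen count was 18 and the fallen count 6, and without Cre-Idh1 replicate 1 the fallen count was 2. Macrophage markers moved beside these genes: 4 of 10 rose (40%, beside 9.8% of all genes), C1qb keeping its call (106, 52.9 and 46.7 against 12.1, 13.7 and 12.4; 2.25 ± 0.35). Their risen count was 1 without Cre control replicate 1 or 3 and 2 without Cre-Idh1 replicate 1. The lysosomal protease Ctss, high in macrophages, rose too (436, 185 and 344 against 75.9, 134 and 80.7; 1.69 ± 0.33). Ptgir, the prostacyclin receptor gene, rose from a low level (82.7, 60.8 and 62.7 against 11.0, 28.4 and 13.5; 2.01 ± 0.37).

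Transcription factors of the AP-1, ATF, EGR and MAF families rose in 9 of 26 cases and none fell (34.6%). Fosl1 (809, 690.3 and 734 in the Cre-Idh1 libraries, 453, 313 and 352 in the Cre control and 231 and 162 in the floxed control; 1.01 ± 0.15) and Mafg, a partner of NRF2 (5907, 5764 and 7256 against 3837, 3502 and 3458; 0.80 ± 0.11), rose. Egr4 (1.55 ± 0.29), Fosl2 (0.70 ± 0.13) and Atf3 (0.70 ± 0.09) kept their calls. Of the Kruppel-like and Sp factors 7 of 22 rose (31.8%, beside 9.8% of all genes), with Klf4 at 10818, 10744 and 11449 against 5446, 5779 and 5955 (0.94 ± 0.08) and Klf2 at 8029, 7123 and 9678 against 4276, 4790.4 and 4124 (0.90 ± 0.12). Of the same list 4 fell (18.2%, beside 9.39% of all genes), with Klf14 at 455, 436 and 434 against 816, 1092 and 977 (-1.11 ± 0.12). The risen count was 4 without Cre control replicate 2 or 3, and the fallen count 2 and 1 without Cre control replicates 2 and 3, in turn. Sox7 was the most changed SOX factor (71.3, 81.4 and 58.4 against 9.90, 21.0 and 10.3; 2.34 ± 0.35), from a level near 10 in the control. The stress gene Trib3 rose (3708, 5061 and 5869.8 in the Cre-Idh1 libraries, 2054, 2376 and 2403 in the Cre control and 2644 and 2767 in the floxed control; 1.08 ± 0.16). So did Ppp1r15a (7337, 7083 and 8937 against 4421, 4519 and 4540.1; 0.79 ± 0.10). Of the p53 target list 8 of 20 rose (40%, beside 9.8% of all genes), 4 of them (Gdf15, Bbc3, Perp and Cdkn1a) whichever library was left out. That count was 4 without Cre control replicate 2 or 3 and 5 with sex as a covariate, and 4 when libraries were scaled by their totals.

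TET enzymes and Jumonji demethylases use alpha-ketoglutarate, whereas the DNA methyltransferases and their partner, listed here with the former, do not. Of these 8 TET and methyltransferase genes none rose and 2 fell (25%, beside 9.39% of all genes), with a fallen count of 1 without any 1 Cre control library and 1 with sex as a covariate. Tet1, which oxidizes methylcytosine, stood at 749.5, 847 and 619 in the Cre-Idh1 libraries, 1886, 1672 and 1469.5 in the Cre control and 1628 and 2395 in the floxed control (-1.19 ± 0.14). Of 26 Jumonji genes none rose and 4 fell (15.4%; list median -0.02), with a fallen count of 2, 1 and 1 without Cre control replicates 1, 2 and 3, in turn, 2 without Cre-Idh1 replicate 1 or 2, and 2 with sex as a covariate. Of these Jmjd8, which acts outside chromatin, was the one that kept its call whichever library was left out (544, 517 and 661 against 942, 1198 and 1074; -0.90 ± 0.13). Among imprinted genes Magel2 and its chromosomal neighbour Ndn fell. Magel2 stood at 1469, 1231 and 1579.5 in the Cre-Idh1 libraries, 3076, 3066 and 3089 in the Cre control and 3410.4 and 3601 in the floxed control (-1.12 ± 0.10). Ndn stood at 2447, 2766 and 2807 against 4063, 4303 and 4250.3 (-0.66 ± 0.09), and Sgce fell too (-0.71 ± 0.10). The thyroid hormone receptor gene Thrb fell as well (483, 629 and 559 against 947, 804 and 995; -0.72 ± 0.13). The retinoic acid synthesis enzyme Aldh1a2 rose from under 6 normalized counts (22.7, 19.6 and 36.1 against 5.50, 3.66 and 1.03; 2.73 ± 0.54).

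Some genes of bone and of the perichondrium fell. Smpd3, a sphingomyelinase needed for mineralization, stood at 4843, 4889.8 and 4393 in the Cre-Idh1 libraries, 11759, 9044 and 10268 in the Cre control and 14217 and 12244 in the floxed control (-1.13 ± 0.11). Phex, a phosphate regulator of bone, stood at 489, 281 and 197 in the Cre-Idh1 libraries, 801, 803 and 798 in the Cre control and 1112 and 773 in the floxed control (-1.41 ± 0.27), with a spread within Cre-Idh1 from 197 to 489. Pdgfra and Prrx1 mark limb and perichondrial mesenchyme and were low in all 3 Cre-Idh1 libraries. Their list did not move as one: 7 of its 14 genes had a log2 fold change above 0, with 0 called risen (list median 0.08). Pdgfra stood at 966, 809.9 and 846 in the Cre-Idh1 libraries, 1756, 1678 and 1744 in the Cre control and 1879 and 1466 in the floxed control (-0.99 ± 0.10). Prrx1 stood at 1901, 1937 and 1591 in the Cre-Idh1 libraries, 3423, 3448 and 3357 in the Cre control and 4043 and 4064 in the floxed control (-0.92 ± 0.10). Of 10 osteoblast genes 5 fell (50%) and of 14 perichondrial and fibroblast genes 4 fell (28.6%), beside 9.39% of all genes. The summed level of the latter list overlapped between groups (121795, 123973 and 171347 against 109761, 172316 and 152147, Cre-Idh1 against the Cre control). The fallen count of osteoblast genes was 2 without any 1 Cre control library, 2 without Cre-Idh1 replicate 2, and 2 with sex as a covariate, and that of perichondrial genes 2 without Cre control replicate 3. Without Cre-Idh1 replicate 2, 2 osteoblast genes rose. In the wider list of hypertrophy and mineralization 8 of 29 fell and 2 rose (27.6% and 6.90%). The risen were the phosphate carrier genes Slc20a1 and Slc20a2, and each lost its call without at least 1 library. The fallen count was 3 without any 1 Cre control library, 4 without Cre-Idh1 replicate 2, and 5 with sex as a covariate, and the risen count 1, 1 and 0 without Cre control replicates 1, 2 and 3, in turn, 1 without Cre-Idh1 replicate 1, and 1 with sex as a covariate. Of 8 osteoclast markers, genes of the cells that resorb bone, 2 rose (Atp6v0d2 and Tnfrsf11a, 25% beside 9.8% of all genes) and none fell, and all lay above 0. That risen count was 0 without Cre control replicate 1 or 3, 1 and 4 without Cre-Idh1 replicates 1 and 2, in turn, and 1 with sex as a covariate. Atp6v0d2 lost its call without Cre-Idh1 replicate 1 or 3 or Cre control replicate 1 or 3 (highest adjusted p 0.153). Tnfrsf11a lost it without Cre control replicate 1 or 3 (highest adjusted p 0.0719).

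**Figure D4:**
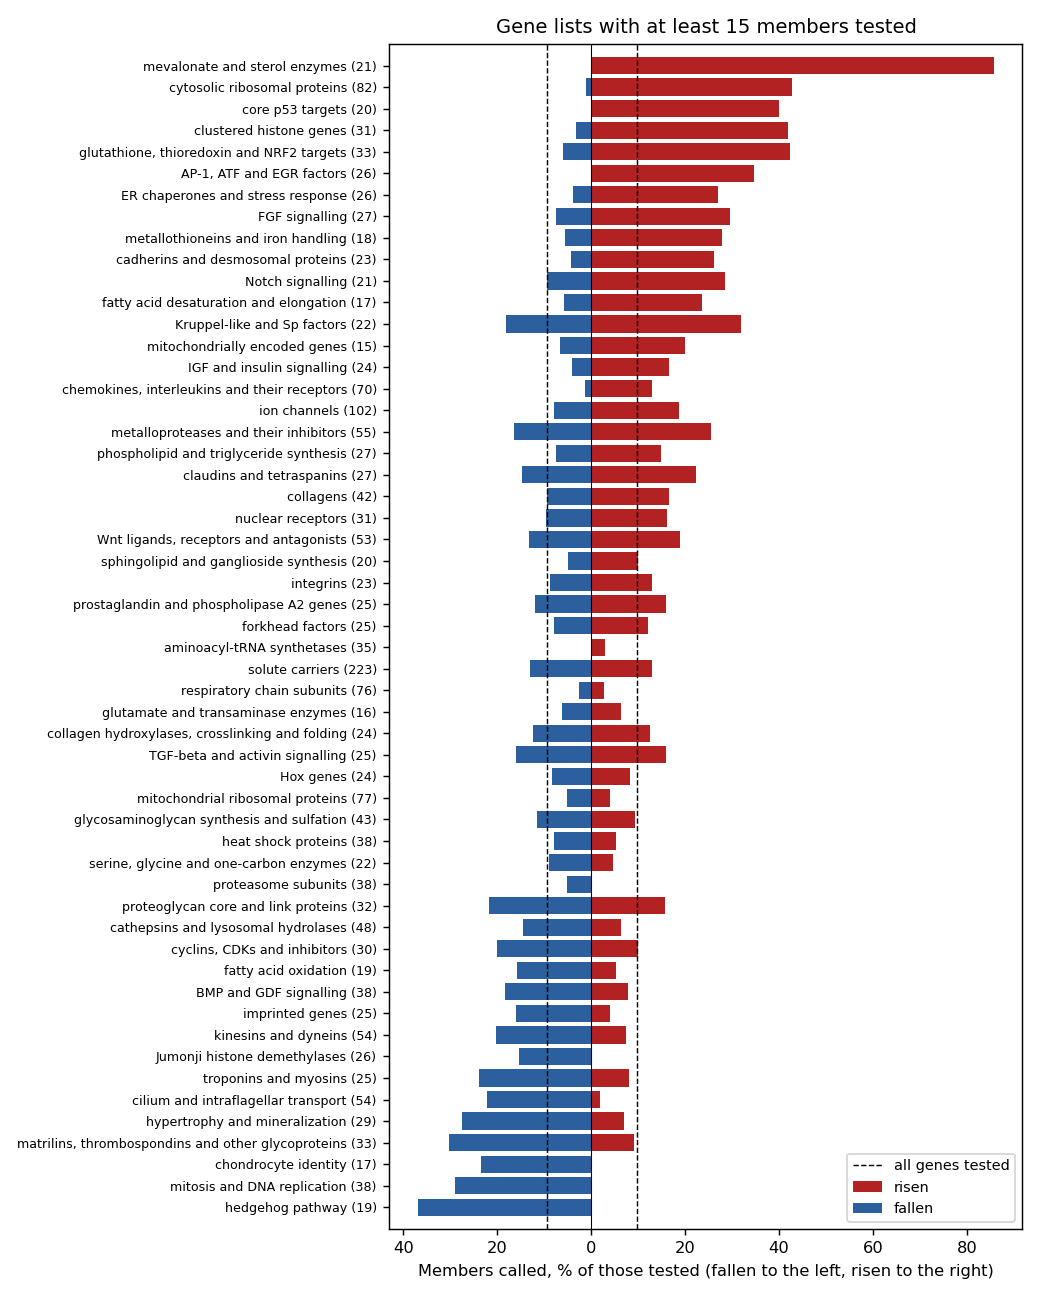
Share of tested members called (horizontal, percent; risen in red to the right, fallen in blue to the left) for the 54 gene lists with at least 15 members tested, with the number tested in brackets and dashed lines at 9.8% and 9.39%, the shares over all genes. Sterol enzymes reach 85.7% risen, and the Hedgehog list has the longest bar to the left with 36.8% fallen.

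Calls also went with base composition. Of the genes tested 14701 (99.0%) matched a longest transcript in the GENCODE annotation used for lengths and GC content. Genes were divided by GC content into 5 bins of equal size. From the lowest bin (27.5% to 44.0% GC) to the highest (55.6% to 84.2%), the share of risen genes went from 4.15% to 15.9% and that of fallen genes from 11.2% to 6.67%. The median log2 fold change went from -0.16 to 0.11 over the same bins. By transcript length the share of risen genes stayed between 9.04% and 10.7%, and that of fallen genes was lowest, 5.88%, in the shortest of 5 length bins. The 4 lists of at least 15 genes with the highest shares of rises had median GC contents of 48.7% (sterol enzymes), 49.2% (glutathione and NRF2), 50.9% (cytosolic ribosome) and 54.0% (clustered histones), against 48.5% for the cilium and 48.2% for mitosis and replication. The part of base composition in the calls was not tested.

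**Figure D5:**
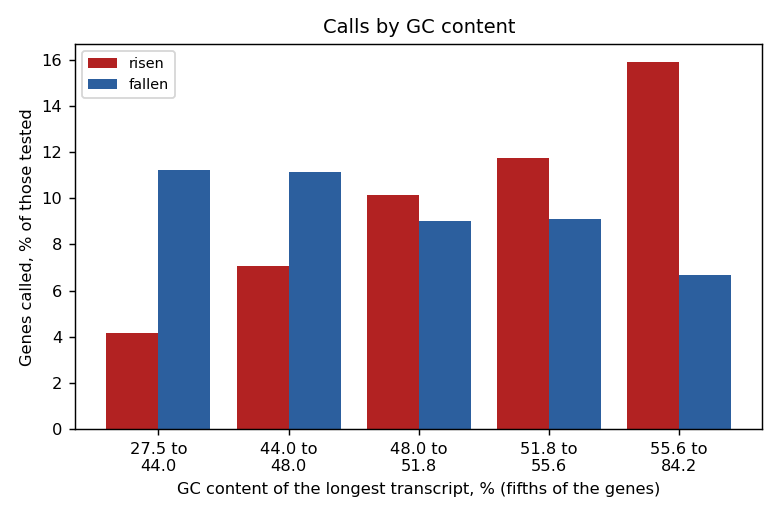
Share of genes risen (red) and fallen (blue), in percent of those tested (vertical), in 5 bins of equal gene number by the GC content of the longest transcript (horizontal). The risen bars climb from 4.15% to 15.9% and the fallen bars go down from 11.2% to 6.67%.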

How the data were processed

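RNA of 8 libraries was sequenced, and 6 enter the comparison. Per the labels' protocols, the RNA came from an RNeasy kit and the libraries from a KAPA Stranded mRNA kit. Trim Galore, cutadapt, STAR, HTSeq and DESeq2 are named in the submitters' processing notes, without versions. Build, annotation and strand setting were not given in the sources used here. Per the file headers, the deposited tables of 16432 genes hold a normalized expression value per gene and library, a signal that the authors made by dividing read counts by a size factor for each library. The same libraries held identical values in the tables used, so the Idh1 fl/+ values stand on the same scale.

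All values (100% within 0.001) were whole multiples of the value of 1 read, so reads could be recovered, from 31860422 to 40838583 per library of the comparison. The lowest sum of reads over all libraries for a listed gene was 10, so the tables look filtered already.

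Genes that reached 10 normalized counts in 3 or more of the 6 libraries were tested with limma 3.58.1 in R 4.3.3, with a mean-variance trend, on log2(normalized count + 1). Fold changes are on that scale, which understates those of low genes, and are given ± SE. The SE is that of limma, which draws the variance of each gene toward the trend, so it is not the spread of that gene's libraries alone. All adjusted p-values are two-sided, from limma with Benjamini-Hochberg adjustment over the 14851 genes tested, and a gene with an adjusted p under 0.05 is called risen or fallen. The test was checked on simulated data with known changes. Alternatives were other pseudocounts, filters, scalings and thresholds, the floxed control in the fit, embryo sex as a covariate, leaving out each library, and edgeR 4.0.16 (quasi-likelihood test) and DESeq2 1.42.0 on the recovered reads.

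The members and the 74 gene lists were chosen with earlier results of these data known. Genes were named by rule: the Idh genes, the 12 largest rises and falls with a mean of at least 100 normalized counts and groups that do not overlap, the 6 largest rises and falls in counts, up to 4 called genes per list by size of change, and called neighbours of Idh1. Other genes that are named were chosen after their values were seen, mostly as list members that kept their call whichever library was left out. Some genes that the rule names are not reported here. Current symbols came from a GENCODE table that matched 16233 of the 16432 gene IDs (98.8%), and promoter windows from RefSeq (GRCm38.p6), matched by symbol for 11153 of 14851 genes. Transcript lengths and GC content came from GENCODE vM21. Replicates are numbered in accession order and pair nothing.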

Additional observations from a re-analysis of the deposited data

How the results depend on the processing

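No paired analysis was possible because replicate numbers follow accession order and the labels tie no library of one group to one of the other. Leaving out 1 library gave 668 to 1806 risen and 508 to 2034 fallen genes, and the lower ends came without Cre control replicate 3. Embryo sex as a covariate left 921 fallen genes. An adjusted p under 0.01 gave 572 and 479, and a further 2-fold limit at 0.05 gave 556 and 294. DESeq2 called 1800 risen and 1653 fallen genes, and edgeR 1460 and 1372. Scaling by library total moved the median of all genes to -0.06 and gave 1116 risen and 1446 fallen genes. The log2 fold change of Idh1 ran from -0.10 to 0.00 over the fits that left out 1 library and was 0.0049 without Cre control replicate 3. By library total Idh3b turned to -0.030. Leaving out 1 library gave -0.011 to 0.053 for Idh3b, below 0 without Cre-Idh1 replicate 3 (-0.010) or Cre control replicate 3. Neither gene was called in any fit, and the cause of the changes was not tested. Of 267 named genes that were called, 155 kept their call whichever library was left out. With 3 libraries a group, small changes of low genes were not detectable at this depth: the median SE of the log2 fold change was 0.36 under 100 normalized counts and 0.10 from 1000 to 10000.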

Other observations

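Esr1, the gene of the estrogen receptor alpha, stood at 2529, 2128 and 2209 normalized counts in the Cre-Idh1 libraries and at 1860.4, 1922 and 1599 in the Cre control, against 117 and 105 in the floxed control. Each of the 6 Cre-bearing libraries thus lay above both libraries without Cre. The labels do not describe the sequence of the Cre construct, and reads of a transgene that carries a part of Esr1 could not be told apart from those of the gene itself.

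Around Idh1, of the 100 genes tested nearest to it in the RefSeq gene order, 50 on each side, 11 rose and 9 fell, close to the shares over all genes, with a median log2 fold change of -0.06.

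By class, 84 of 1113 non-coding genes tested rose (7.55%) and 31 fell (2.79%), against 9.98% and 9.92% of the 13738 coding genes. Their median SE was 0.35 beside 0.14 for coding genes.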
